A study of Triticum aestivum with 45 samples.

Results

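The middle of wheat chromosome 5B holds a run of genes in which the doubled haploid line DH2 had been seen to differ from its recurrent parent, and it is described here as all genes with identifiers from TraesCS5B01G260000 to TraesCS5B01G330000. These are 701 of the 110790 genes listed and of the 5734 listed for chromosome 5B, taken whatever their level. The range was set from earlier results on DH2 against Superb in these same libraries, so the DH2 against Superb values are given as a description. DH2 against DH1 uses the same DH2 libraries and is treated likewise. The tests reported are those of DH1 against Superb and of the treatments within a genotype.

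The data are RNA-seq gene counts from spikelets of hexaploid bread wheat at anthesis. DH2 is GS-1-EM0168, a doubled haploid from CM82036 with Superb as the recurrent parent (CM82036/Superb*2). DH1 is GS-1-EM0040, a doubled haploid from CIMMYT11 with the same recurrent parent (CIMMYT11/Superb*2), and Superb is a Canadian hard red spring cultivar. Each line is a single doubled haploid, so differences belong to that line and not to its donor at large. Spikes of each genotype were sprayed with 100 µM methyl jasmonate (MeJA), 100 µM salicylic acid (SA), 100 µM ethephon or water, and spikelets were taken 8 h later from 5 plants in a treatment group. Untreated spikelets were taken at 0 h. Every one of the 15 groups has 3 libraries, 45 in all.

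A doubled haploid plant carries identical copies of each chromosome, and a line bred by crossing back to a recurrent parent keeps most of that parent's genome with stretches of the donor's among it. Genes that are neighbours on a chromosome are inherited together, so differences between such lines are usually examined along the gene order. MeJA is converted in the plant to jasmonoyl-isoleucine, which binds the receptor COI1. JAZ repressor proteins are then destroyed and transcription factors of the MYC type are freed, which is the route to wound and defence genes. SA acts in defence against pathogens that live on living tissue, and ethephon releases ethylene.

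Library totals lay between 6446374 and 17940396 counts (median 11251553). Of the 701 genes, 390 passed the filter on low counts and were tested (55.6%, against 59.2% in the rest of chromosome 5B), and 107 had no count in any library. A gene that passed only through the genotype in which it is high had to differ, so shares of tested genes do not stand for all 701. The files give identifiers without names, so the genes have no stated function here and the tissue could not be checked against marker genes. Ethephon replicate 1 stood apart in Superb and in DH1, by at least 1 gene each. The Superb library held 36 counts of TraesCS5B01G309600, a gene with 0 counts in the other 14 Superb libraries, and the DH1 library held all 6 counts that DH1 had of TraesCS5B01G301500, a gene otherwise counted almost solely in DH2. Results that rest on these libraries are given with and without them. By chi-square per degree of freedom between replicate counts, other libraries lay further from their group. MeJA replicate 1 gave 15.7 and 19.3 in DH2, against 4.3 between replicates 2 and 3. In Superb it gave 11.6 and 13.1, against 3.7. Untreated replicate 3 gave 11.5 and 13 in DH2, against 3.42 between replicates 1 and 2. In Superb it gave 15 and 16.6, against 5.41, and in DH1 16.8 and 8.73, against 4.81.

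Along the range, DH2 was lower than Superb more often than higher, and the strongest differences were genes with almost no reads in DH2. Genes were called at a Benjamini-Hochberg adjusted p under 0.05 in edgeR's quasi-likelihood test over all 63091 tested genes, and a gene is said to differ when it also had an absolute log2 fold change of at least 1. Of the 390 tested genes, 104 were called between DH2 and Superb, 25 higher and 79 lower in DH2 (26.7%, against 10.7% of all tested genes, of which 4.35% were higher and 6.39% lower). Of these, 33 differed, 10 higher and 23 lower in DH2 (8.46%, against 2.08% of all tested genes, 0.884% higher and 1.2% lower, and 4.57% in the rest of chromosome 5B). Since the range was set from this contrast, nothing is read from these shares. The median log2 fold change was -0.07 in the range and 0.00 over all tested genes. Of the 23 lower genes, 15 were lower by at least 4-fold, and 8 of the 10 higher genes were higher by at least 4-fold. The smallest absolute log2 fold change among the 33 was 1.00 and the largest among the other called genes was 0.97. The 71 called genes under the 2-fold limit were lower in DH2 in 56 cases. Calls over all tested genes also leaned to lower in DH2 (6.39%, against 4.35% higher). Gene counts in bulk tissue cannot tell fewer cells of a type from less RNA per cell.

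The genes at the start of the identifier range had like levels in all genotypes. TraesCS5B01G259800 and TraesCS5B01G259900, the last tested genes before the range, had DH2 minus Superb log2 differences of -0.11 and -0.05, and TraesCS5B01G260000 and TraesCS5B01G260100, the first inside it, had -0.01 and 0.07. No gene differed among 246 tested genes numbered 220000 to 259900. Within the range, bins of 10000 in identifier number held 1 differing gene of 50 tested from 260000, 11 of 60 from 270000, 4 of 48 from 280000, 4 of 63 from 290000, 6 of 58 from 300000, 2 of 55 from 310000 and 5 of 56 from 320000. Apart from 1 gene, the differing genes began at TraesCS5B01G274100.

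The densest part of the range lay near that opening. A stretch score, in which each differing gene adds and each other tested gene subtracts so that the best stretch is the one whose share of differing genes most exceeds 20%, placed it from TraesCS5B01G274100 to TraesCS5B01G276900, with 9 of 21 tested genes differing (42.9%), 2 higher and 7 lower in DH2. TraesCS5B01G274000, the tested gene just before, had 7.74 ± 1.78 CPM in DH2, 7.64 ± 0.89 CPM in DH1 and 7.65 ± 1.74 CPM in Superb (SD over 15 libraries each). CPM stands for the count scaled to library size with TMM factors. Its neighbour TraesCS5B01G274100 was almost without reads in DH2. The score always starts a stretch at a differing gene that follows one that does not differ. A change between adjacent tested genes at this edge is therefore set by the method.

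At the other end the differing genes went on past the range. TraesCS5B01G329900, the last tested gene inside it, was silent in DH2, at 0.0124 ± 0.0344 CPM, against 4.08 ± 0.816 CPM in DH1 and 3.33 ± 0.953 CPM in Superb. TraesCS5B01G330100 and TraesCS5B01G330200, the next tested genes outside, had log2 differences of -0.13 and -0.14. Further on, 54 of 389 tested genes numbered 330000 to 399900 differed (13.9%), and 0 of 299 numbered 400000 to 449900. When the whole chromosome was scored, the best stretch lay outside the range, from TraesCS5B01G343900 to TraesCS5B01G356300, with 29 of 52 tested genes differing (55.8%), 7 higher and 22 lower in DH2. TraesCS5B01G343900 had 0.112 ± 0.274 CPM in DH2, 2.11 ± 0.613 CPM in DH1 and 2.36 ± 0.85 CPM in Superb. TraesCS5B01G356300 had 142 ± 25.8 CPM in DH2, 54.6 ± 11.3 CPM in DH1 and 55.7 ± 18.5 CPM in Superb. With called genes scored without a fold limit, the best stretch ran from 273000 to 394300. The edges therefore depend on the score, and they also depend on the libraries: without replicate 2 of every group, the best stretch was a distal one, from 516800 to 536700.

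**Figure D1:**
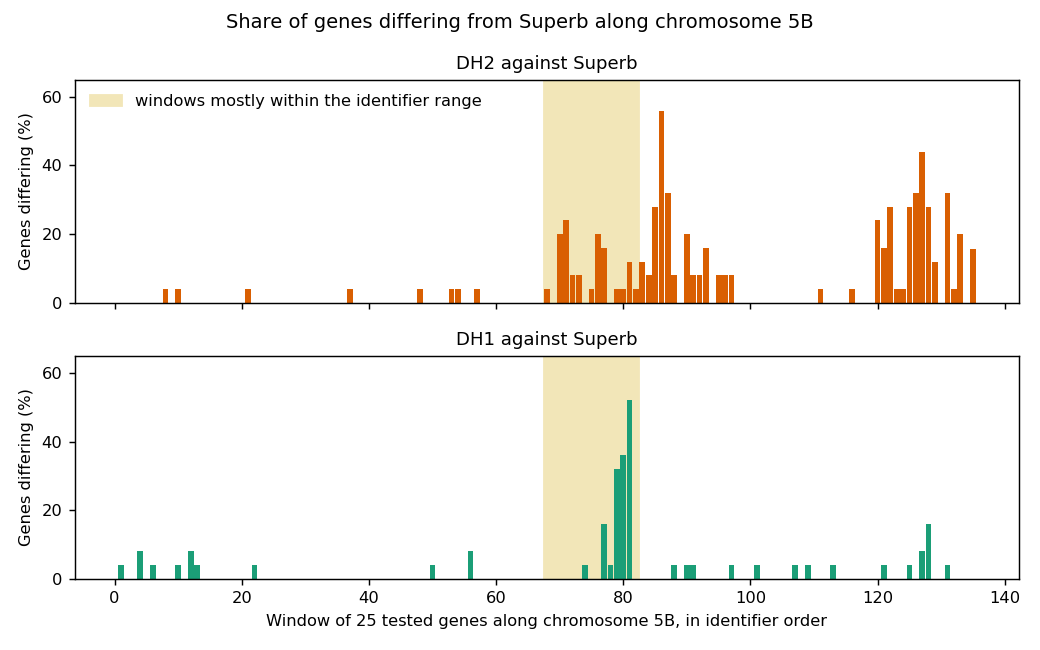
Share of tested genes that differed (percent, y axis) in consecutive windows of 25 tested genes along chromosome 5B in identifier order (x axis), for DH2 against Superb (top) and DH1 against Superb (bottom), with the windows mostly inside the identifier range shaded. The DH2 windows with differing genes go on to the right of the shading, and the highest DH1 bar, 13 of 25 genes, stands inside it.

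Genes with almost no reads in DH2 were spread over the range. A gene was called silent in a genotype when its mean over the 15 libraries lay under 0.1 CPM there and at 1 CPM or more in the other genotype, with no filter on low counts. Of 331 genes at 1 CPM or more in Superb, 7 were silent in DH2 (2.11%, against 61 of 54360, or 0.112%, over all genes). Their summed level lay between 0 and 0.519 CPM in the DH2 libraries (median 0.139), between 30.9 and 55.4 CPM in the DH1 libraries (median 39.3) and between 35.0 and 96.2 CPM in the Superb libraries (median 41.1). The DH2 libraries lay wholly below those of both other genotypes. The 7 genes were picked by their DH2 and Superb means over these same libraries. A low DH2 sum is therefore built in and is given as a description. Of the 7, 4 form 2 pairs of neighbouring identifiers, and 1 of these pairs reached 1 CPM in Superb only through the MeJA libraries.

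TraesCS5B01G299700 had the highest Superb level of the 7. Its 15 DH2 libraries held 7 counts together, with a lowest and median value of 0 CPM and a highest of 0.311 CPM. It lay between 15.7 and 27.8 CPM in DH1 (median 20.7) and between 18.3 and 25.8 CPM in Superb (median 21.9). The fitted DH2 minus Superb log2 difference was -9.52 (SE 0.19), while DH1 minus Superb was -0.07 (SE 0.08, adjusted p = 0.721 in edgeR). The gene listed just before it was silent as well, with 0 counts in the 15 DH2 libraries and 189 in the 15 Superb libraries. Over the summed DH2 libraries a count of 0 allows up to 0.0162 CPM, so that gene was at least 69.4-fold lower in DH2 than in Superb.

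TraesCS5B01G274100, the first gene of the dense stretch, came next by Superb level. It had 3 counts in 15 DH2 libraries, none above 0.208 CPM, against 8.03 to 13.6 CPM in DH1 (median 10.4) and 8.81 to 12.6 CPM in Superb (median 11.7). Its DH1 minus Superb log2 difference was -0.15 (SE 0.09, adjusted p = 0.433 in edgeR).

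The reverse case, genes read in DH2 and silent in Superb, numbered 2 of 320 genes at 1 CPM or more in DH2 (0.625%, against 102 of 54148, or 0.188%, over all genes). TraesCS5B01G276700 lay between 1.07 and 3.01 CPM in DH2 (median 2.08), had 0 counts in DH1 and 1 count in the 15 Superb libraries. It was at least 121-fold higher in DH2 than in DH1. TraesCS5B01G301500 lay between 1.04 and 2.72 CPM in DH2 (median 1.84), had 6 counts in DH1, all in ethephon replicate 1, and 1 count in Superb. Both had counts in each DH2 library.

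Other differing genes were read in all genotypes, at a lower or higher level in DH2. TraesCS5B01G274800 lay between 11.1 and 16 CPM in DH2 (median 14.1), between 24.9 and 53.4 CPM in DH1 (median 40.7) and between 24.3 and 50 CPM in Superb (median 38.4). No DH2 library reached the lowest value of the other genotypes. TraesCS5B01G275600 averaged 13.2 ± 5.94 CPM in DH2, 34.1 ± 17.0 CPM in DH1 and 34.6 ± 16.4 CPM in Superb (SD, n = 15 each). Its libraries overlapped between genotypes only when conditions were pooled. Within each condition the DH2 libraries lay wholly below the others. After water they held 13.3 to 18.5 CPM in DH2, 19.9 to 41.4 CPM in DH1 and 32.4 to 33.0 CPM in Superb.

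Among higher genes, TraesCS5B01G298700 lay between 20.6 and 32.5 CPM in DH2 (median 24.7), between 0.595 and 1.77 CPM in DH1 (median 1.02) and between 0.47 and 1.53 CPM in Superb (median 1.11). Its DH2 minus Superb log2 difference was 4.63 (SE 0.10), and the DH2 libraries lay wholly above the rest. TraesCS5B01G320300 lay between 79.1 and 107.0 CPM in DH2 (median 95.2), between 15.6 and 27.4 CPM in DH1 (median 21.4) and between 25.4 and 43.2 CPM in Superb (median 35.5). It was higher in DH2 and lower in DH1 than in Superb. The DH1 minus Superb log2 fold change was -0.65 (SE 0.05, adjusted p = 5.07e-12 in edgeR), called but under the 2-fold limit.

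**Figure D2:**
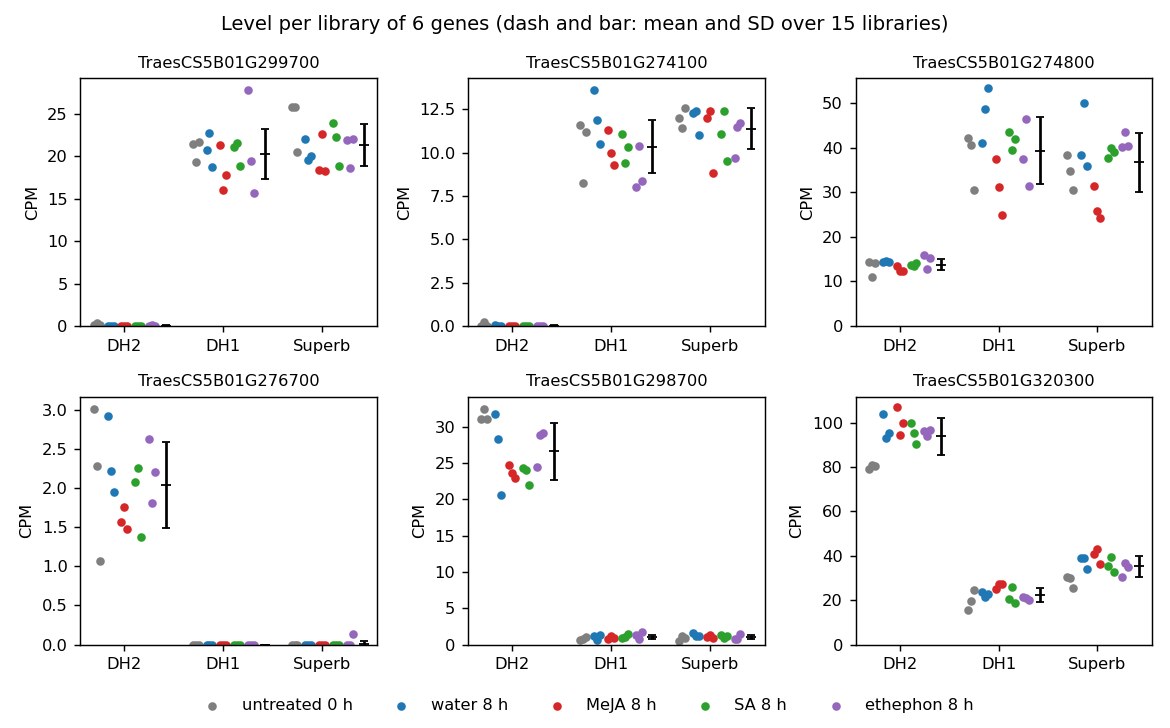
Level in CPM (y axis) of 6 genes in each library of DH2, DH1 and Superb (x axis), coloured by treatment, with the mean and SD over 15 libraries as a dash and bar. TraesCS5B01G299700 and TraesCS5B01G274100 sit at or near 0 in DH2, TraesCS5B01G276700 at or near 0 in DH1 and Superb, and TraesCS5B01G298700 averages 26.6 CPM in DH2 against 1.04 CPM in DH1 and 1.07 CPM in Superb.

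DH1, which was not used to set the range, also differed from Superb there. The Superb libraries are shared with the contrast that set the range. Of the 390 tested genes, 64 were called between DH1 and Superb, 4 higher and 60 lower in DH1 (16.4%, against 5.34% of all tested genes, 2.54% higher and 2.8% lower, and 3.79% in the rest of chromosome 5B). Of these, 36 differed by at least 2-fold, 4 higher and 32 lower (9.23%, against 1.66% of all tested genes, 0.786% higher and 0.873% lower, and 0.973% in the rest of chromosome 5B). The median log2 fold change of the range was -0.05, against 0.00 over all tested genes. Without Superb ethephon replicate 1 there were 67 calls, and without DH1 ethephon replicate 1 there were 63.

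Most of these genes lay in 1 stretch near the end of the range. By the same stretch score it ran from TraesCS5B01G315700 to TraesCS5B01G323200, with 76 genes listed and 55 tested. The stretch was picked by its values, so its counts are a description. In it 29 of 55 tested genes differed between DH1 and Superb (52.7%), 1 higher and 28 lower in DH1, and 43 were called, 42 of them lower. Outside it, 21 of the other 335 tested genes were called and 7 differed. In proportion this was near all tested genes, of which 5.34% were called and 1.66% differed. The median DH1 minus Superb log2 difference in the stretch was -1.09, and the median DH2 minus Superb difference of the same genes was -0.06.

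The DH1 level relative to Superb varied widely, and not every gene was reduced. The DH1 mean was under 10% of the Superb mean in 8 of the 55 genes, between 10% and 50% in 19, between 50% and 80% in 18 and at 80% or more in 10. The last class holds TraesCS5B01G322500, called higher in DH1, at 965%, and TraesCS5B01G317900, not called higher, at 269%. The median was 50.4% in DH1 (quartiles 23.7% and 70.1%) and 95.9% in DH2 (quartiles 86.0% and 107.0%). Tested genes next to the stretch had 3.55 ± 1.58 CPM in DH2, 1.96 ± 1.11 CPM in DH1 and 2.92 ± 1.41 CPM in Superb on the near side (TraesCS5B01G315600), and 13.9 ± 5.73 CPM in DH2, 11 ± 6.06 CPM in DH1 and 13.3 ± 5.76 CPM in Superb on the far side (TraesCS5B01G323300).

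**Figure D3:**
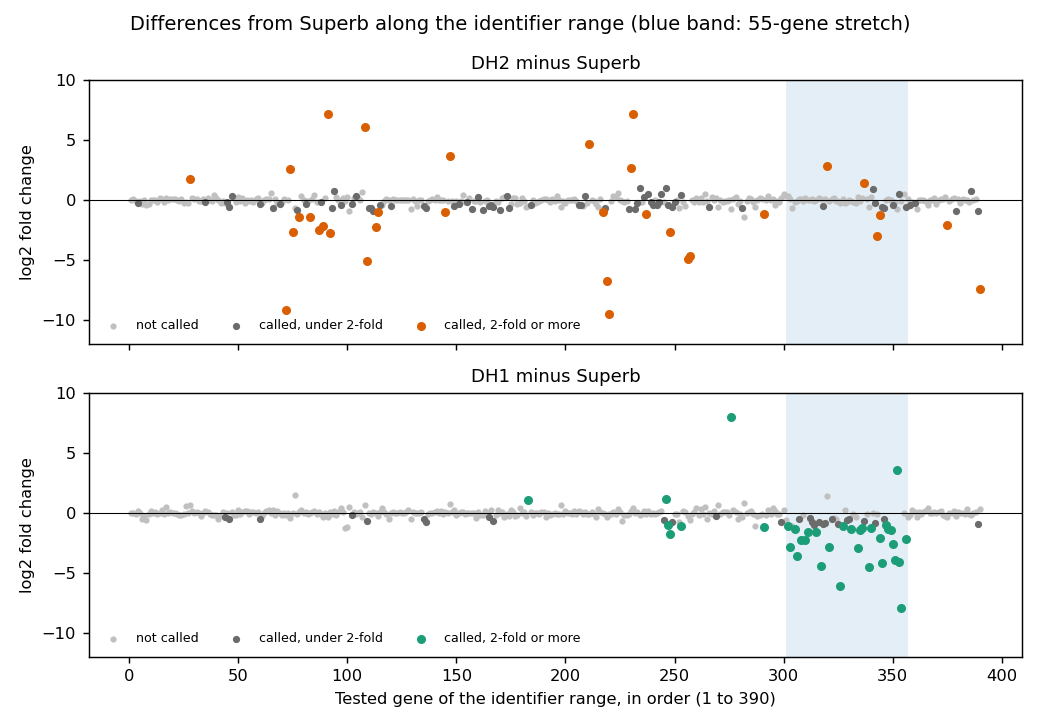
Log2 fold change (y axis) of the 390 tested genes in identifier order (x axis), for DH2 minus Superb (top) and DH1 minus Superb (bottom), with genes that differ by at least 2-fold in colour and the 55-gene stretch as a blue band. In the DH1 panel 29 coloured points lie in the band and 7 outside it, whereas in the DH2 panel 4 of 33 lie in it.

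TraesCS5B01G322800 was silent in DH1 when set against Superb. It had 0 counts in 15 DH1 libraries, lay between 0.319 and 7.25 CPM in DH2 (median 2.16) and between 0.597 and 7.64 CPM in Superb (median 2.66), and was at least 187-fold lower in DH1 than in Superb. The other gene of the range that was silent in DH1 against Superb was TraesCS5B01G320600, named after its values were seen, which had 0.734 ± 0.323 CPM in DH2, 8 counts in all in DH1 and 1.05 ± 0.395 CPM in Superb. TraesCS5B01G317500 lay between 2.08 and 3.83 CPM in DH2 (median 3.31), between 0 and 0.76 CPM in DH1 (median 0.142) and between 1.79 and 4.58 CPM in Superb (median 2.89). Its DH1 minus Superb log2 fold change was -4.43 (SE 0.25, adjusted p = 9.08e-19 in edgeR).

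Of the 4 genes higher in DH1, TraesCS5B01G309600 had the largest difference. It lay between 4.92 and 8.72 CPM in DH1 (median 6.61), had 2 counts in 15 DH2 libraries, and in Superb was read in ethephon replicate 1 alone, at 2.59 CPM. Its DH1 minus Superb log2 fold change was 8.00 (SE 0.49, adjusted p = 1.26e-11 in edgeR), and 9.32 without that library (adjusted p = 2.62e-15). Without that library it also counts as silent in Superb, where otherwise 0 genes of the range were silent in Superb and at 1 CPM or more in DH1. Among the higher genes whose average log2 CPM reached 1, TraesCS5B01G294700 came next. It lay between 5.84 and 71.3 CPM in DH1 (median 27.4) and between 2.01 and 50.9 CPM in Superb (median 11.1), with a log2 fold change of 1.07 (SE 0.31, adjusted p = 0.0357 in edgeR). This call was lost without replicate 1, 2 or 3 (adjusted p = 0.155, 0.163 and 0.111) and without DH1 ethephon replicate 1 (adjusted p = 0.0575).

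The DH1 stretch also supplied a large share of the DH2 against DH1 differences. Between these lines 162 of 390 tested genes were called, 80 higher and 82 lower in DH2 (41.5%, against 20.5% of all tested genes, 8.79% higher and 11.7% lower). Of these, 66 differed by at least 2-fold, 40 higher and 26 lower (16.9%, against 4.14% of all tested genes, 1.56% higher and 2.57% lower). Of those 66, 31 lay in the stretch, 29 of them higher in DH2. The 35 outside it had 11 higher and 24 lower in DH2.

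The summed level of the 55 genes was lower in DH1 in every condition. The genes were picked on DH1 against Superb over these same conditions, so a lower DH1 sum is built in and is given as a description. In untreated spikelets the libraries held 1240 to 1462 CPM in DH2, 789.7 to 893 CPM in DH1 and 1097 to 1367 CPM in Superb. After water they held 897 to 1047 CPM in DH2, 489 to 536 CPM in DH1 and 904 to 964 CPM in Superb, and after MeJA 979 to 1036 CPM in DH2, 523 to 573 CPM in DH1 and 873 to 1041 CPM in Superb. After SA they held 993 to 1042 CPM in DH2, 465 to 553 CPM in DH1 and 971 to 1051 CPM in Superb. After ethephon they held 889 to 996 CPM in DH2, 411 to 494 CPM in DH1 and 814 to 938 CPM in Superb, with replicate 1 the lowest Superb library. In each condition every DH1 library lay below every library of the other genotypes, while DH2 and Superb overlapped. The sum leaned on TraesCS5B01G322900, whose DH1 mean was 95.2% of the Superb mean. In untreated spikelets it averaged 474 CPM in DH2, 408 CPM in DH1 and 412 CPM in Superb. The mean sums there were 1379, 845 and 1275 CPM. After water it averaged 113, 75.6 and 88.4 CPM, a large part of the fall in the sum.

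**Figure D4:**
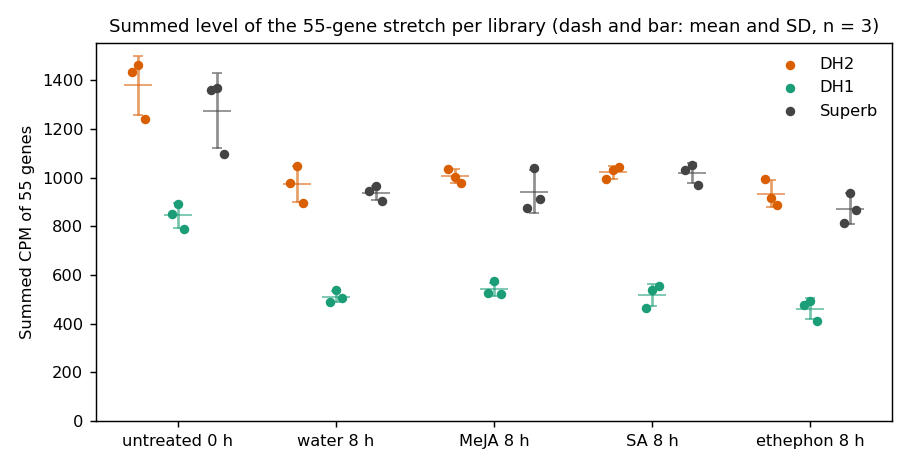
Summed level in CPM (y axis) of the 55 tested genes from TraesCS5B01G315700 to TraesCS5B01G323200 in each library, by treatment (x axis) and genotype, with the mean and SD of 3 libraries. DH1 libraries lie at 893 CPM or below and, in every treatment, under all DH2 and Superb libraries. The genes were picked on DH1 against Superb in these same libraries.

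MeJA changed genes of the range in all genotypes, but in no larger share than elsewhere. The comparison is of MeJA with water, both at 8 h, in 1 genotype at a time. In DH2, 44 of the 390 tested genes rose and 26 fell (17.9%, against 23.5% of all tested genes, 14.3% up and 9.22% down). In DH1, 62 rose and 35 fell (24.9%, against 27.7%, 16.3% up and 11.4% down), and in Superb 51 rose and 22 fell (18.7%, against 22.1%, 12.5% up and 9.58% down). In all 3 genotypes 32 genes rose (8.21%, against 9.57% of all tested genes) and 10 fell (2.56%, against 4.95%). Single libraries moved these counts: without DH2 MeJA replicate 3 there were 45 calls in DH2, and without DH1 MeJA replicate 2 there were 58 in DH1. MeJA replicate 1 had the lowest summed level of genes outside the DH1 stretch in each genotype. Replicates 1, 2 and 3 held 3646, 4227 and 4727 CPM in DH2 and 4064, 4642 and 4563 CPM in DH1. In Superb they held 4001, 4889 and 4951 CPM.

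TraesCS5B01G307100 had the highest mean fold change among genes that rose in all genotypes and had an average log2 CPM that reached 1. After MeJA it had 2.77, 22.9 and 33.1 CPM in DH2, 7.79, 22.1 and 24.9 CPM in DH1 and 4.63, 20.9 and 27.3 CPM in Superb, from lowest to highest, and no water library was above 0.667 CPM. The log2 fold changes were 5.77 (SE 0.74) in DH2, 7.23 (SE 0.93) in DH1 and 6.31 (SE 0.89) in Superb, with adjusted p of at most 6.29e-07 in edgeR. Every MeJA library lay above every water library. The highest Superb ethephon library held 3.95 CPM, above the lowest DH2 MeJA library at 2.77 CPM. TraesCS5B01G260100, the second gene of the range, rose by log2 fold changes of 2.93 (SE 0.36) in DH2, 3.33 (SE 0.39) in DH1 and 3.08 (SE 0.44) in Superb, to 5.98 ± 1.28, 6.37 ± 1.41 and 4.85 ± 1.2 CPM after MeJA (SD, n = 3 each).

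By the same rule the strongest decreases were in adjacent genes. TraesCS5B01G268100 had 1.34, 1.6 and 4.25 CPM after MeJA and 28.6, 28.7 and 29.0 CPM after water in DH2. It had 1.47 ± 1.17 CPM after MeJA and 24.3 ± 3.2 CPM after water in DH1, and 2.16 ± 1.27 CPM after MeJA and 24.7 ± 2.27 CPM after water in Superb. Its log2 fold changes were -3.56 (SE 0.58) in DH2, -4.11 (SE 0.63) in DH1 and -3.49 (SE 0.61) in Superb, with adjusted p of at most 4.11e-05 in edgeR. TraesCS5B01G268200 fell by log2 fold changes of -3.41, -4.91 and -2.56 in DH2, DH1 and Superb, with adjusted p of at most 0.000435 in edgeR.

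The genes that differed between DH2 and Superb had a median mean level of 1.34 CPM, against 5.62 CPM for the other tested genes of the range, and 7 of them were silent in DH2; the part of these low levels in the MeJA calls was not tested. Of the 33, 0 were called after MeJA in DH2, 6 in DH1 (4 rose and 2 fell, 18.2%) and 5 in Superb (4 rose and 1 fell, 15.2%). Of the other 357 tested genes, 19.6% were called in DH2, 25.5% in DH1 and 19.0% in Superb. Being called in DH1 or Superb and not in DH2 does not show that the responses differ, and the difference itself was tested. For DH2 minus Superb, 0 of 390 genes were called in edgeR (12 had an unadjusted p under 0.05), against 0.0111% of all tested genes. For DH2 minus DH1 the count was 0 (18 unadjusted, against 0.0222% of all tested genes called), and for DH1 minus Superb 0 (13 unadjusted, against 0% called). DESeq2 also called 0 genes in each of the 3 tests, while edgeR with a replicate block within each condition called 0 for DH2 minus Superb, 1 for DH2 minus DH1 and 1 for DH1 minus Superb. The shares over all tested genes under that block are not given here.

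TraesCS5B01G274800, lower in DH2 over all conditions, was called after MeJA in DH1 and Superb only. In DH2 it had 12.7 ± 0.674 CPM after MeJA and 14.4 ± 0.107 CPM after water, with a log2 fold change of -0.18 (SE 0.15, adjusted p = 0.445 in edgeR). It fell in DH1, to 31.2 ± 6.24 CPM after MeJA against 47.7 ± 6.28 CPM after water, and in Superb, to 27.2 ± 3.7 CPM against 41.4 ± 7.55 CPM (log2 fold changes -0.61 and -0.60, adjusted p = 0.00134 and 0.00241 in edgeR). The difference in response between DH2 and Superb was 0.42 on the log2 scale (SE 0.21), which was not called (adjusted p = 1.0 in edgeR).

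The neighbouring genes TraesCS5B01G305500 and TraesCS5B01G305600 were silent in DH2 and rose after MeJA in DH1 and Superb. They met the limit of 1 CPM in Superb only through the MeJA libraries: over the other 12 libraries of each genotype TraesCS5B01G305500 averaged 0.0413 ± 0.0719 CPM in DH2 and 0.424 ± 0.246 CPM in Superb, and TraesCS5B01G305600 averaged 0.0171 ± 0.0409 CPM in DH2 and 0.253 ± 0.174 CPM in Superb (SD). TraesCS5B01G305500 had 0 counts in the 3 DH2 MeJA libraries, which allows up to 0.0951 CPM. It had 0.757, 15 and 16.4 CPM in MeJA replicates 1, 2 and 3 of DH1 and 1.21, 18 and 39.1 CPM in those of Superb. After water it had at most 0.0607 CPM in DH2, 0.191 to 0.501 CPM in DH1 and 0.288 to 0.333 CPM in Superb. Each MeJA library of DH1 and Superb lay above each of its water libraries, with replicate 1 the lowest in both genotypes. In DH1 that replicate lay within the range of the SA libraries, 0.365 to 1.33 CPM. The log2 fold change was 5.08 (SE 0.86, adjusted p = 1.47e-05 in edgeR) in DH1 and 5.87 (SE 0.87, adjusted p = 2.08e-06) in Superb.

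TraesCS5B01G305600 followed the same course. It had 0 counts in the DH2 MeJA and water libraries, 1.51, 6.98 and 6.11 CPM in MeJA replicates 1, 2 and 3 of DH1 and 1.21, 9.56 and 23.2 CPM in those of Superb, against at most 0.201 CPM after water in DH1 and 0.333 CPM in Superb. The log2 fold change was 5.05 (SE 0.82, adjusted p = 7.38e-06 in edgeR) in DH1 and 5.41 (SE 0.73, adjusted p = 3.44e-07) in Superb. Neither gene was called for a difference in response: for TraesCS5B01G305500 the DH2 minus Superb difference was -8.20 with a standard error of 5.24 on the log2 scale (adjusted p = 1.0 in edgeR), with 2 counts in DH2 after water and 0 after MeJA.

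**Figure D5:**
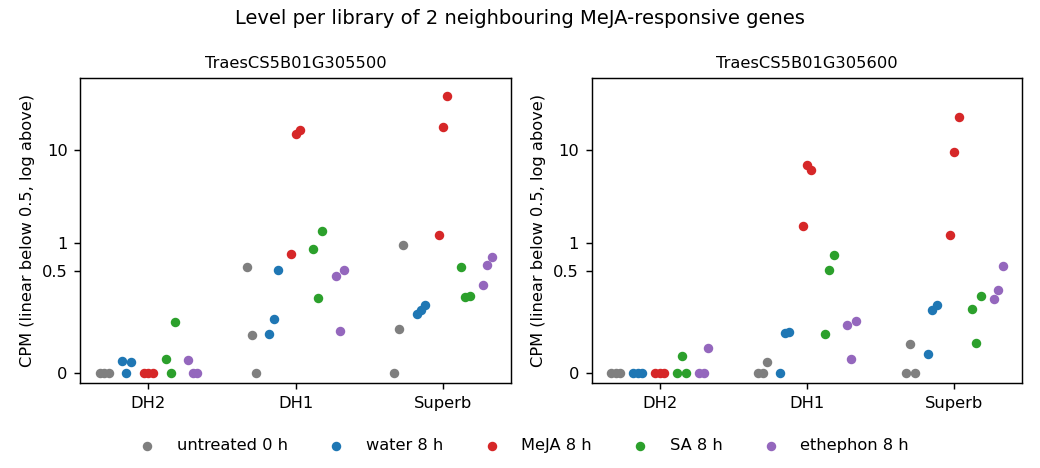
Level in CPM (y axis, linear below 0.5 and logarithmic above) of TraesCS5B01G305500 (left) and TraesCS5B01G305600 (right) in each library of DH2, DH1 and Superb (x axis), coloured by treatment. The highest points in DH1 and Superb are MeJA libraries, at up to 39.1 CPM, and the MeJA libraries stand at 0 in DH2. For TraesCS5B01G305500 the lowest DH1 MeJA library, at 0.757 CPM, lies below the highest DH1 SA library, at 1.33 CPM.

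Spraying with water and the 8 h that passed are held together in the contrast of water at 8 h with untreated spikelets at 0 h. In DH2, 49 genes of the range rose and 42 fell (23.3%, against 26.8% of all tested genes, 12.9% up and 13.8% down). In DH1 41 rose and 42 fell (21.3%, against 25.7%, 13.1% up and 12.5% down), and in Superb 51 rose and 55 fell (27.2%, against 27.5%, 13.9% up and 13.6% down). In all 3 genotypes 27 rose (6.92%, against 8.12% of all tested genes) and 30 fell (7.69%, against 8.35%). TraesCS5B01G285300 rose by log2 fold changes of 2.81 (SE 0.39) in DH2, 3.09 (SE 0.40) in DH1 and 2.93 (SE 0.36) in Superb. TraesCS5B01G275600, lower in DH2 over all conditions, rose by 2.36 (SE 0.31) in DH2, 1.73 (SE 0.28) in DH1 and 1.62 (SE 0.28) in Superb. TraesCS5B01G260100 fell by 2.10 in DH2, 2.59 in DH1 and 2.75 in Superb on the log2 scale, opposite to its change after MeJA, and TraesCS5B01G322900 fell by 2.06, 2.43 and 2.22. The adjusted p of these 4 genes was at most 0.000105 in edgeR in each genotype.

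The difference between DH2 and Superb did not depend detectably on the condition. In a test with 4 degrees of freedom, 0 of 390 genes were called in edgeR (10 had an unadjusted p under 0.05), against 0.0793% of all tested genes. The largest F values belonged to TraesCS5B01G289600 (F = 3.48, edgeR adjusted p = 1) and TraesCS5B01G299700 (F = 3.45, edgeR adjusted p = 1).

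SA and ethephon gave 1 call in the range over 6 contrasts. TraesCS5B01G285400 had 9.51, 9.6 and 16.6 CPM after SA in DH1, from lowest to highest, against 2.51, 4.17 and 4.39 CPM after water. Its SA libraries also lay wholly above water in DH2, at 8.32 to 12.4 against 4.41 to 7.17 CPM. The same held in Superb, at 12.9 to 17.2 against 6.63 to 10.6 CPM. Its log2 fold change after SA was 0.87 (SE 0.33, adjusted p = 1.0 in edgeR) in DH2, 1.69 (SE 0.35, adjusted p = 0.0322) in DH1 and 0.69 (SE 0.32, adjusted p = 1.0) in Superb. Over all tested genes SA called 0.0491% in DH2, 0.105% in DH1 and 0.0206% in Superb, and ethephon 0% in DH2, 0.00159% in DH1 and 0.0571% in Superb. The call was lost when replicate 1, 2 or 3 of every group was left out, whereas DESeq2 and a replicate block gave 2 calls in the range each, and a replicate block within each condition gave 7. Shares over all tested genes are not given for these alternatives, so their counts are not read as a trait of the range. In the range, unadjusted p lay under 0.05 after ethephon for 7 genes in DH2, 28 in DH1 and 15 in Superb, and none was called in edgeR.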

How the data were processed

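The deposited table holds raw counts per gene for 45 libraries; the submitters' processing notes name STAR 2.5.3a, an aligner, and DESeq2 with no role. The name of the deposited table carries the tag iwgscrefv1_0, which points to an IWGSC reference, and the build is not stated otherwise. The program that counted, its strand setting and its treatment of multi-mapping reads are not given in the sources used. Reads of homoeologous and duplicated genes can be assigned to the wrong copy, which leaves single copies uncertain. The analysis used edgeR 4.0.16 in R 4.3.3. Genes kept by filterByExpr over the 15 groups, 63091 with 99.73% of counts, were scaled by TMM and fitted with a mean per group (glmQLFit, legacy = FALSE, 30 residual degrees of freedom). Contrasts went through glmQLFTest with Benjamini-Hochberg adjustment over all tested genes. Genotypes were compared over the mean of the 5 conditions. The standard error is the absolute log2 fold change over the square root of F. DESeq2 1.42.0, other scaling, no filter, a replicate block and left-out libraries were alternatives.

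CPM was computed from the deposited counts with TMM factors. Where a group had no count, 3 counts over its summed libraries were taken as the limit, for counting error only. The 45 replicate pairs had a chi-square per degree of freedom of 2.25 to 19.3, so each library was counted once. Nothing says that replicates came from separate plants, so p-values may measure technical spread between samples only. The pipeline was tested on simulated data.

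Gene order was read from identifiers, of which 0 matched the reference table of another assembly (IWGSC CS RefSeq v2.1), so no coordinates or sequences are printed. Members, lists and tests were chosen with earlier results of these data known. Named genes are at most 2 in each direction per comparison: by level in the higher genotype for DH2 against Superb, by fold change among genes whose average log2 CPM reached 1 for DH1 against Superb, MeJA and water, by F for condition dependence, and the genes at edges. The stretch score adds 0.8 for a differing gene and subtracts 0.2 for another.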

Additional observations from a re-analysis of the deposited data

How the results depend on the processing

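Apart from the SA call of TraesCS5B01G285400, described above, 44 results on single named genes kept their direction in 584 alternatives and their side of the threshold in 580; the 4 exceptions are those of TraesCS5B01G294700 given above. Over the 22 counts and edges, 255 of 294 alternatives stayed within 1.5 times the count or at the same edge. The best DH2 stretch on chromosome 5B ran from 497600 to 536800 with a log2 limit of 0.5, from 497600 to 560600 at a share of 10%, from 273000 to 394300 without a fold limit, from 343800 to 356500 without a filter, from 274100 to 276900 with only genes of the range, and from 315700 against DH1. Leaving out libraries gave first genes between 343900 and 516800 and last genes between 356300 and 536700. The DH1 stretch began at 303600 at a share of 10%, at 315300 without a filter and between 315700 and 315900 with libraries left out. Without the genes of the DH1 stretch, 35 genes differed between DH2 and DH1 and 7 between DH1 and Superb, with 21 called between DH1 and Superb. The share of 10%, the scoring within the range, the DH1 stretch and the counts without it were chosen after seeing the data. With libraries left out, called genes numbered 65 to 104 for DH2 against Superb, 28 to 79 for MeJA in DH2, 33 to 103 in DH1 and 27 to 89 in Superb, 43 to 83 for water in DH1, 61 to 108 in Superb, and 0 to 1 for SA or ethephon; 2 libraries a group, where a whole replicate is left out, give fewer calls by construction. DESeq2 called 2 genes after SA or ethephon.

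The labels do not say that a replicate number marks a shared plant or batch, and numbers were not taken to pair libraries because r did not pass 0.1 in every same-numbered pair. It did so in 32 of 45 such pairs of different genotypes within a condition (r from -0.0679 to 0.633, median 0.167). In 34 the same-numbered library gave the best correlation of the 3 libraries of the other group, a hint of pairing from the data. The main fit leaves any such pairing out. With a replicate block, 33 genes differed between DH2 and Superb, 68 between DH2 and DH1 and 37 between DH1 and Superb, MeJA called 76 in DH2, 107 in DH1 and 77 in Superb, and SA or ethephon called 2. With the replicate block within each condition, SA or ethephon called 7, and 1 gene each was called for a different MeJA response in DH2 and DH1 and in DH1 and Superb. No share over all tested genes is given for the fits with a block, so these counts do not set the range apart. Low counts limit the response of genes silent in DH2.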
